A study of Homo sapiens with 6 samples.

Results

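The genes described are 10 transcription factors of squamous epithelium: ZNF750, TP63, SOX2, KLF4, KLF5, GRHL1, GRHL2, GRHL3, OVOL1 and OVOL2. They were taken by gene symbol from a table of 60564 genes, in which each symbol occurred in 1 row, and all 10 were among the 18786 genes with enough counts to be tested. RNA sequencing was done on CAL27 cells, a line established from a human oral squamous cell carcinoma. The control group held 3 libraries of CAL27 cells with a control lentiviral vector, labelled WT and named EGFP in the sample descriptions. The other group, CNTNAP2-203 OE, held 3 libraries of CAL27 cells with a lentivirus carrying CNTNAP2-203, a transcript of the adhesion protein gene CNTNAP2. Both groups had been selected with puromycin at 5 μg/ml for 2 weeks. The study asked how this overexpression acts on the growth of oral carcinoma cells. Nothing in the labels tells whether the 3 libraries of each group are separate cultures, and p-values therefore refer to the spread between these libraries alone, which may be technical. Where a pair of means is given, CNTNAP2-203 OE comes first.

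Stratified squamous epithelium is built by a basal layer of dividing cells whose daughters stop dividing, move outwards and differentiate. TP63 (p63) keeps the basal state and also switches on factors of the next steps, ZNF750 among them. ZNF750 is a zinc finger protein that, with KLF4 and the corepressor proteins KDM1A, RCOR1, CTBP1 and CTBP2, turns off basal genes and turns on late differentiation genes. ZNF750 is known as a gene lost or mutated in squamous carcinomas, while SOX2 and TP63 lie on a chromosome arm that is often gained in them. The grainyhead factors GRHL1, GRHL2 and GRHL3 and the OVO-like factors OVOL1 and OVOL2 maintain the epithelial state, the latter by repressing mesenchymal genes.

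Library totals ranged from 36843190 to 42412703 counts, and between 25336 and 27002 genes were detected per library. The smallest total belonged to CNTNAP2-203 OE replicate 3, which also lay farthest from its own group. CNTNAP2 itself had 0, 3 and 4 counts in the controls and 140022, 156055 and 119280 in the CNTNAP2-203 OE libraries. The cells had the markers of keratinocytes in both groups: the 10 marker genes, among them KRT5, KRT14 and DSG3, were all tested, and their summed level was 13790 to 15940 CPM (counts scaled to a library of 1000000) in the controls and 13790 to 16800 CPM in CNTNAP2-203 OE. The sum follows the most abundant genes. Of the 10 log2 fold changes 7 were negative and 3 positive, with a median of -0.16. None of the 10 was called changed by edgeR in the main fit, and 6 had an unadjusted p under 0.05. DESeq2 called 3 of them lower (KRT17, DSG3 and DSC3). Without CNTNAP2-203 OE replicate 3, and with no filter on low counts, edgeR called KRT17 lower. Markers of other cells stayed low in both groups, at sums of 41.0 to 46.1 against 40.1 to 42.9 CPM for 8 fibroblast genes, 52.3 to 71.6 against 56.7 to 64.7 CPM for 8 leukocyte genes and 6.31 to 9.66 against 8.0 to 11.5 CPM for 7 endothelial genes. In each of these 3 lists only 1 gene had no count in any library (THY1, MS4A1 and KDR). Enough counts to be tested were found for 4 fibroblast, 4 leukocyte and 2 endothelial genes. No gene of these 3 lists was called by edgeR (none at an unadjusted p under 0.05), DESeq2 or limma.

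Of the 10 factors, ZNF750 alone passed the test between the groups, and it was lower in CNTNAP2-203 OE. ZNF750 was at 35.5, 37.6 and 36.1 CPM in control replicates 1, 2 and 3. It was at 18.6, 16.3 and 17.0 CPM in CNTNAP2-203 OE replicates 1, 2 and 3. The groups were far apart: the highest library of CNTNAP2-203 OE lay below the lowest control, and within a group the highest library was only 1.06 times (control) or 1.14 times (CNTNAP2-203 OE) the lowest. The means were 17.3 ± 1.17 against 36.4 ± 1.09 CPM (SD, n = 3 each). That is 2.11-fold lower (log2 fold change -1.07, SE 0.108, adjusted p = 0.009374 in edgeR's quasi-likelihood test), with a 95% interval of 0.40 to 0.564 for the ratio. By its p-value ZNF750 ranked 18 among the 18786 genes tested. Across these genes 0.596% were called lower and 1.39% called in either direction. The fall stayed between -1.13 and -1.03 (log2) whichever library was left out. Its adjusted p passed without CNTNAP2-203 OE replicate 1, 2 or 3 (0.0428, 0.0325 and 0.00677) and was 0.0621, 0.0753 and 0.0653 without control replicate 1, 2 or 3. In bulk RNA, fewer cells that express a gene and less RNA of it per cell cannot be told apart.

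ZNF750 (ENSG00000141579) lies on the minus strand of chromosome 17 from 82829435 to 82840578 (GRCh38, GENCODE 29), wholly inside TBCD, a tubulin folding cofactor gene on the plus strand. The library kit does not mark strand, so reads from TBCD RNA that is not yet spliced could be counted for ZNF750. The 2 genes share 0 bases of exon in GENCODE 29, but the exons used for counting may differ from these. TBCD was at 43.4, 46.1 and 42.1 CPM in the controls and at 47.8, 50.5 and 47.2 CPM in CNTNAP2-203 OE, so its means lay in the opposite order to those of ZNF750. It was not called (log2 fold change 0.15, edgeR adjusted p = 0.463).

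**Figure D1:**
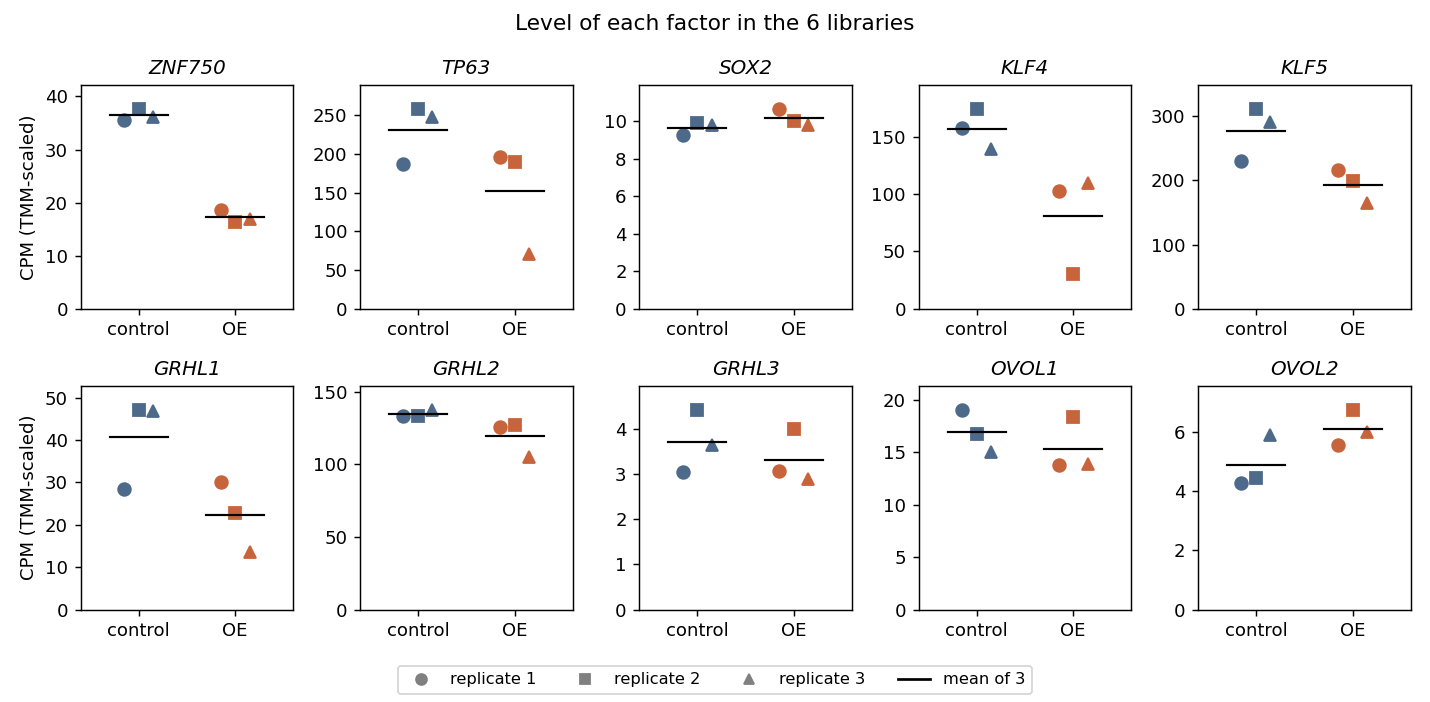
Level of the 10 factors in each library, in CPM after scaling by library (vertical axis from 0), with control in blue, CNTNAP2-203 OE (OE) in orange, 1 symbol per replicate and a line at the mean of 3. ZNF750 is low in every CNTNAP2-203 OE library, while in KLF4 replicate 2 (30.6 CPM) and in TP63 replicate 3 (70.9 CPM) lie far below the other CNTNAP2-203 OE libraries.

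The other 9 factors did not pass, but several of them had lower means. In all, 8 of the 10 log2 fold changes were negative and 2 positive, with a median of -0.35, whereas over all tested genes 50.4% were negative and the median was -0.0038. In 4 of the 10, namely ZNF750, KLF4, KLF5 and GRHL2, all 3 CNTNAP2-203 OE libraries lay below all 3 controls, a pattern that 12.8% of the tested genes had. None of the 10 had all 3 libraries above the controls, a pattern of 13.7% of the tested genes, so 4 of 10 had groups without overlap in either direction, against 26.5% of all. An unadjusted p under 0.05 was found for ZNF750, KLF5 and GRHL1, 3 of 10, against 17.2% of the tested genes. The 10 factors were chosen with earlier results of these data known, and ZNF750 is counted in the 8, the 4 and the 3. Whether the factors differ as a set from other genes was not tested.

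The Krüppel-like factors had lower means in CNTNAP2-203 OE, and neither passed the test. KLF4, which drives the barrier genes of outer layers, was at 158, 174 and 139 CPM in control replicates 1, 2 and 3. It was at 102.5, 30.6 and 109.5 CPM in CNTNAP2-203 OE replicates 1, 2 and 3. All 3 of the latter were below the controls, but replicate 2 was far below the rest, and the highest library of the group was 3.57 times the lowest. With that spread the log2 fold change of -0.96 (SE 0.476) did not pass (edgeR adjusted p = 0.377), and the 95% interval of the ratio ran from 0.226 to 1.17. Without CNTNAP2-203 OE replicate 2 it was -0.57, with a smaller SE of 0.129, and did not pass either (edgeR adjusted p = 0.118). Relative to the mean of its 2 companion libraries, KLF4 in replicate 2 was lower by 1.79 (log2), and only 125 of the 18786 tested genes were as low or lower there. Its relative KLF7 had the same shape, at 130, 168 and 144 CPM in the controls and 103, 23.7 and 80.5 CPM in CNTNAP2-203 OE; KLF7 was named after its values were seen.

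KLF5, a factor of dividing basal cells and of many carcinomas, varied less. It was at 230.5, 311 and 291 CPM in control replicates 1, 2 and 3 and at 216, 200 and 164 CPM in CNTNAP2-203 OE replicates 1, 2 and 3. The groups did not overlap, although control replicate 1 was close to CNTNAP2-203 OE replicate 1. The difference in log2 was -0.52 (SE 0.149, edgeR adjusted p = 0.139), with a 95% interval of 0.549 to 0.884 for the ratio, before any adjustment for the number of genes. DESeq2 called KLF5 lower (adjusted p = 0.0415).

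Of 16 other genes of the KLF family 11 were tested and none was called by edgeR, with 4 at an unadjusted p under 0.05, and none by limma on counts or on log2 values. DESeq2 called 1, KLF13, lower. The median log2 fold change of the 11 was -0.32, and 10 of 11 were negative. The 3 with the smallest p were KLF13 at 92.2 ± 12.3 against 133 ± 15.3 CPM (edgeR adjusted p = 0.109), KLF9 at 9.58 ± 1.53 against 13.8 ± 1.01 CPM and KLF11 at 17.6 ± 0.775 against 22 ± 2.20 CPM (SD, n = 3 each). In each of the 3 all CNTNAP2-203 OE libraries lay below the controls, but the 3 were picked by p-value from these same libraries. Of the 11 genes, 5 had this pattern, against 12.8% of all tested genes.

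TP63 had a lower mean in CNTNAP2-203 OE, with 1 library far below the others. It was at 187, 258 and 248 CPM in control replicates 1, 2 and 3. It was at 196.5, 190 and 70.9 CPM in CNTNAP2-203 OE replicates 1, 2 and 3. Replicates 1 and 2 thus lay at the level of control replicate 1, and replicate 3 far below all others. With all 6 libraries TP63 had a log2 fold change of -0.60 (SE 0.397, edgeR adjusted p = 0.489), and it was -0.26 (SE 0.142, adjusted p = 0.409) without CNTNAP2-203 OE replicate 3. The 95% interval of the ratio with all libraries, 0.334 to 1.30, includes 1, no difference. TP63 (ENSG00000073282; chromosome 3, 189631416 to 189897279, plus strand) has 8 distinct transcript starts in GENCODE 29. The counts are per gene and do not separate the long TAp63 from the short ΔNp63 forms, of which the latter is the one known from basal cells.

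The library with the low TP63 value also differed from its companions by the length of genes. In CNTNAP2-203 OE replicate 3, against the mean of replicates 1 and 2, the 4630 genes with the longest summed exons (at least 6621 bases) had a median log2 difference of -0.20, and the 4631 genes with the shortest (up to 2177 bases) had 0.23. TP63 and GRHL1, with 7454 and 7952 exon bases, are the 2 factors in the longest class, and they were lower in that library by 1.44 and 0.94 (log2), more than the median of their length class. As low or lower there were 602 and 1340 of the 18786 tested genes. Control replicate 1 showed the same order at a smaller size, with medians of -0.06 for the longest and 0.08 for the shortest class, and TP63 and GRHL1 were lower in it than in the other controls by 0.44 and 0.72 (log2). Per the labels, the forward reads alone of control replicate 1 were submitted. Whether its counts came from these reads alone is not known. The parts of transcript length and of this difference in reads in these values were not tested. ZNF750, with 3713 exon bases, differed by -0.04 in CNTNAP2-203 OE replicate 3 and by -0.05 in control replicate 1. Other factors outside the longest class were also lower in CNTNAP2-203 OE replicate 3. KLF5 differed by -0.34, GRHL2 by -0.26, GRHL3 by -0.27 and OVOL1 by -0.19 (log2). SOX2 and OVOL2 differed by -0.08 and -0.03, and KLF4 by 0.97. The class of KLF4, KLF5, GRHL3 and OVOL1 (2178 to 4027 bases) had a median of 0.14.

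GRHL1, which activates desmosome genes, was the other factor with a large difference in means. It was at 28.5, 47.2 and 46.8 CPM in control replicates 1, 2 and 3 and at 30.2, 22.9 and 13.6 CPM in CNTNAP2-203 OE replicates 1, 2 and 3. Control replicate 1 lay below CNTNAP2-203 OE replicate 1, so the groups overlapped. The log2 fold change was -0.88 (SE 0.325, edgeR adjusted p = 0.241), -0.63 without CNTNAP2-203 OE replicate 3 and -1.16 at most when another library was left out, and DESeq2 called it lower (adjusted p = 0.0469).

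GRHL2, the main grainyhead factor of simple and squamous epithelia, was steadier, at 133.2, 133.1 and 138 CPM in the controls and 126, 127 and 105 CPM in CNTNAP2-203 OE replicates 1, 2 and 3. All 3 CNTNAP2-203 OE libraries were below the controls, 2 of them by little (log2 fold change -0.17, SE 0.104, edgeR adjusted p = 0.436; 95% interval of the ratio 0.752 to 1.05). GRHL3, which acts in barrier formation and wound closure, was the scarcest factor, at 3.05, 4.43 and 3.65 CPM in the controls and 3.07, 3.995 and 2.89 CPM in CNTNAP2-203 OE. Its groups overlapped throughout (log2 fold change -0.16, SE 0.219, adjusted p = 0.745), and a ratio from 0.631 to 1.27 is within its 95% interval.

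To show what lies before the starts of KLF4 and GRHL1, the factors with the largest lower means after ZNF750, the 150 bases upstream of their RefSeq starts (GRCh38.p14) are given 5′ to 3′, with the letters reported for ZNF750 binding, CCNNAGGC on either strand, in capitals. KLF4 is on the minus strand at chr9:107489770-107489919 and GRHL1 on the plus strand at chr2:9951543-9951692. Neither window holds an annotated exon base of its own gene, though the KLF4 window lies inside the span of the gene, from which a short transcript starts further out.
KLF4: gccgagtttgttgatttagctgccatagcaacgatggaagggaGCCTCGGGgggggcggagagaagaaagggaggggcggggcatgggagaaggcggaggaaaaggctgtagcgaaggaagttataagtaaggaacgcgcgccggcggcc
GRHL1: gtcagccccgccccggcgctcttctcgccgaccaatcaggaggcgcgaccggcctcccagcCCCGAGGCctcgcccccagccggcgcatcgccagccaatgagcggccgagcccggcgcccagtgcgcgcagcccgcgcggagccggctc
Each window holds 1 match, 107 bases (KLF4) and 89 bases (GRHL1) before the start. Such letters are common: 23.5% of the 35116 windows of 250 bases before RefSeq starts hold them. RefSeq windows were found for 6 of the 10 factors, KLF4, KLF5, GRHL1, GRHL3, SOX2 and TP63, and not for ZNF750, GRHL2, OVOL1 and OVOL2. CCNNAGGC was also in the later of both KLF5 windows (2 matches) and the later of both GRHL3 windows (1 match), and in neither the SOX2 nor the TP63 window, where the TP63 window belongs to the start of the long form. The 150 bases before the later KLF5 start, which hold its 2 matches, are all annotated exon of KLF5. The GC box CCCGCCC, to which KLF and SP factors bind, was found 3 times each in the 250 bases of KLF4 and GRHL1. It was found once each for SOX2 and the later KLF5 start, and 31.5% of all windows hold it at least once. These windows of KLF4, GRHL1, SOX2 and KLF5 were 69.2%, 81.6%, 68.8% and 70.8% G and C. The median over all windows was 58.0%, and the shares of windows were not adjusted for this. Of the other letters searched on both strands, CCACNCCC (KLF) was in the earlier GRHL3 window only, CATTGT (SOX) in both GRHL3 windows and the earlier KLF5 window, and AACNNGTT (GRHL) and CCGTTA (OVOL) in none of the 8 windows. Over all windows they were in 15.7%, 9.29%, 3.0% and 2.45%, in that order. CCCGCCC and CCNNAGGC can share letters where they lie side by side, and a match is a description of letters, not of binding.

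OVOL1 and OVOL2, zinc finger repressors of mesenchymal genes, and SOX2, a factor of the basal and stem cell state, were not distinguishable between the groups. OVOL1 was at 19.1, 16.7 and 15.1 CPM in the controls and 13.8, 18.3 and 13.9 CPM in CNTNAP2-203 OE replicates 1, 2 and 3 (log2 fold change -0.14, SE 0.162, edgeR adjusted p = 0.687). OVOL2 was at 4.29, 4.46 and 5.89 CPM in the controls and 5.55, 6.75 and 6.001 CPM in CNTNAP2-203 OE. It had the highest log2 fold change of the 10, 0.32 (SE 0.183, adjusted p = 0.410), with control replicate 3 inside the range of the other group. SOX2 was the steadiest factor, at 9.25, 9.88 and 9.80 CPM in the controls and 10.65, 10.0 and 9.77 CPM in CNTNAP2-203 OE (log2 fold change 0.07, SE 0.124, adjusted p = 0.798). The 95% intervals of their ratios were 0.698 to 1.17, 0.933 to 1.67 and 0.863 to 1.28, so changes of up to these sizes could have been missed.

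**Figure D2:**
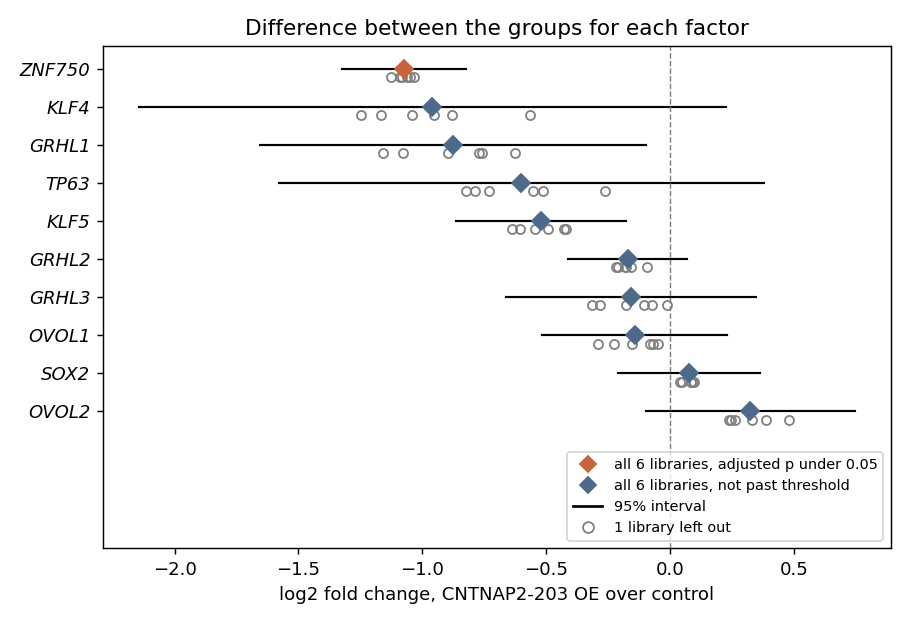
Log2 fold change of each factor, CNTNAP2-203 OE over control (diamonds, orange where the adjusted p is under 0.05), with the 95% interval (line) and the values when 1 of the 6 libraries is left out (open circles). The circles of ZNF750 lie within -1.13 to -1.03, and those of KLF4 spread from -1.25 to -0.57.

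Other annotated genes overlap 7 of the 10 factors; KLF4, KLF5 and GRHL1 overlap none. Of the 15 overlapping genes 6 were tested, and edgeR called none (1 had an unadjusted p under 0.05, STPG1, which overlaps GRHL3). SOX2 lies inside SOX2-OT, a long noncoding gene of the same strand with 18 to 32 counts in a library against 342 to 451 for SOX2. OVOL1 shares 1044 of its exon bases (27.1%) with the antisense gene AP001266.1, which had 4 to 14 counts against 487 to 757 for OVOL1. OVOL2 shares 59 exon bases with SNX5, which was at 133 to 147 CPM in the controls, far above OVOL2, and at 147.4 to 179 CPM in CNTNAP2-203 OE. Reads of SNX5 in that stretch cannot be told apart from reads of OVOL2.

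The factors were also ordered by their level per length of gene, in FPKM (fragments scaled by a length per gene and library depth). Such a length need not be that of the transcripts present. For genes with many transcript forms, such as TP63, the place in the order may depend on it. In the controls the order was KLF5 at 62.4 ± 9.60, KLF4 at 35.5 ± 4.13, TP63 at 25.6 ± 4.31, GRHL2 at 18.4 ± 0.303, ZNF750 at 9.53 ± 0.328, GRHL1 at 4.25 ± 1.115, OVOL1 at 3.68 ± 0.438, SOX2 at 3.17 ± 0.116, OVOL2 at 1.82 ± 0.328 and GRHL3 at 0.769 ± 0.149 FPKM (SD, n = 3). Neighbours in this order had separate ranges except that OVOL1 overlapped both GRHL1 above it and SOX2 below it. In CNTNAP2-203 OE the first 5 places were held by the same factors in the same order, with ZNF750 at 4.399 ± 0.349 FPKM. The ranges of KLF4, TP63 and GRHL2 then overlapped, at 17.6 ± 9.27, 16.6 ± 8.003 and 15.9 ± 2.14 FPKM. GRHL1 moved from place 6 to place 8, at 2.26 ± 0.893 FPKM, with a range that overlapped those of its neighbours.

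**Figure D3:**
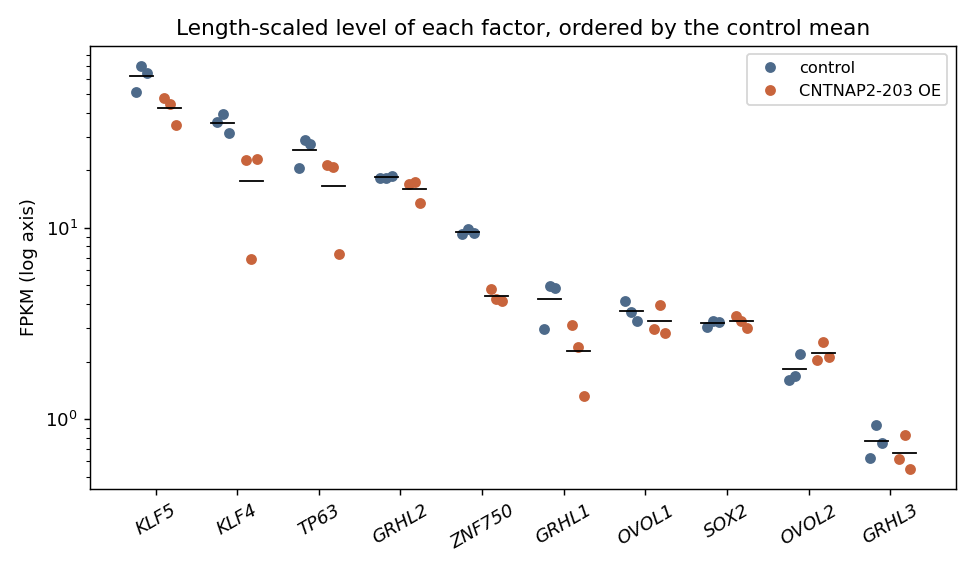
Level per gene length (FPKM, log axis) of the 10 factors in the 3 control (blue) and 3 CNTNAP2-203 OE (orange) libraries. The factors are ordered by the control mean, with a line at each mean. The levels span from 62.4 FPKM for KLF5 to 0.769 FPKM for GRHL3 in the controls, and ZNF750 at 9.53 FPKM stands between GRHL2 and GRHL1.

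Among the 6 genes of proteins that work with ZNF750, KDM1A rose. KDM1A encodes LSD1, a histone demethylase of the CoREST corepressor. It was at 167.5, 189 and 192.5 CPM in control replicates 1, 2 and 3 and at 282, 288 and 294 CPM in CNTNAP2-203 OE replicates 1, 2 and 3 (log2 fold change 0.65, SE 0.0947, edgeR adjusted p = 0.0261). All 3 CNTNAP2-203 OE libraries were above the controls, and the 2 genes thus moved in opposite directions. Its log2 fold change was 0.60 to 0.69 when a library was left out, and of these 6 fits it passed without CNTNAP2-203 OE replicate 3 only (0.0160; 0.0695 to 0.141 in the other 5). The CoREST scaffold gene RCOR1 was at 60.8 ± 7.44 against 74.8 ± 1.61 CPM (adjusted p = 0.232) and the deacetylase gene HDAC2 at 148 ± 7.70 against 124 ± 5.89 CPM (adjusted p = 0.217). CTBP1, CTBP2 and HDAC1 did not pass either. The median log2 fold change of the 6 genes was 0.09.

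Of 20 other transcription factors of squamous epithelium 19 were tested. None was called by edgeR in the main fit, with 6 at an unadjusted p under 0.05, and none by limma on counts or on log2 values. DESeq2 called 2 lower, PRDM1 among them. With a filter of 1 CPM in 3 libraries edgeR called PRDM1 lower (adjusted p = 0.0475). Without CNTNAP2-203 OE replicate 3 edgeR called 1 gene of the list lower. The median of the 19 was -0.29, with 15 of 19 negative. PRDM1 (Blimp1), a transcriptional repressor needed for the last steps of keratinocyte differentiation, was at 11.9, 13.0 and 11.6 CPM in the controls and 7.94, 7.82 and 7.001 CPM in CNTNAP2-203 OE (log2 fold change -0.68, edgeR adjusted p = 0.0549). Its groups did not overlap. GATA3, a factor of epidermal lipid genes, was scarce, at 2.29 CPM in CNTNAP2-203 OE against 1.24 CPM in the controls on average (adjusted p = 0.112).

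The SOX family outside SOX2 had no call by edgeR, DESeq2 or limma. Of 19 SOX genes 10 were tested, 3 with an unadjusted p under 0.05, and the median was 0.01. The 3 were SOX7 at 92.9 ± 1.62 against 112 ± 8.44 CPM, SOX12 at 22.9 ± 3.42 against 28.96 ± 0.987 CPM and SOX9 at 24.8 ± 1.85 against 20.1 ± 1.46 CPM.

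Genes of late differentiation, which ZNF750 and KLF4 are known to switch on, held 1 call. Of 62 listed genes 49 were tested, PLA2G4E fell, none rose, and 17 had an unadjusted p under 0.05. Over all 18786 tested genes 1.39% were called and 17.2% had an unadjusted p under 0.05. These shares apply beside the counts of every list here, and no list was tested against them. The median of the 49 was -0.09, with 30 negative and 19 positive. In 12 of them all CNTNAP2-203 OE libraries lay below the controls, and in 3 all lay above. Over all tested genes these shares were 12.8% and 13.7%. PLA2G4E, a phospholipase gene, was at 19.9, 21.7 and 21.75 CPM in the controls and 8.45, 11.7 and 9.86 CPM in CNTNAP2-203 OE (log2 fold change -1.08, SE 0.1504, edgeR adjusted p = 0.0246). The groups were apart. The call held without CNTNAP2-203 OE replicate 2 or 3 (0.0366 and 0.0247) and was lost without replicate 1 (0.0869) or control replicate 1, 2 or 3 (0.0913, 0.135 and 0.129). Next by p were CERS3, a synthase of barrier ceramides, at 15.8 against 24.8 CPM (adjusted p = 0.0572) and the keratin gene KRT6B at 100.3 against 137 CPM (adjusted p = 0.0586). Without CNTNAP2-203 OE replicate 3, edgeR called 7 lower: PLA2G4E, CERS3, KRT6B, KRT16, KRT17, CSTA and KLK8, of which the last 4 are named after their values were seen. DESeq2 also called 7 lower, 4 of them among those (PLA2G4E, CERS3, KRT6B and KRT17) and S100A7, S100A8 and ABCA12. Not all of the list went this way: IVL (involucrin), a classic differentiation gene, was at 7.25 ± 0.667 against 4.8 ± 1.25 CPM (log2 fold change 0.60, adjusted p = 0.221).

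Of 24 basal genes downstream of TP63, all tested, edgeR called none, with 9 at an unadjusted p under 0.05, and limma none on counts or on log2 values. DESeq2 called 1 higher (S100A2) and 3 lower (DSG3, DSC3 and LAMB3). The median was -0.23, and -0.11 without CNTNAP2-203 OE replicate 3. TP63 was low in that library, but so were the longest genes in general (median -0.20). A link of this list to the level of TP63 was not tested. Of the 24 genes, 9 had all CNTNAP2-203 OE libraries below the controls and 2 had all above. Over all tested genes these shares were 12.8% and 13.7%. The 3 with the smallest p, picked from these same libraries, were adhesion genes. DSG3, a desmosomal cadherin, was at 145 ± 23.7 against 226 ± 35.2 CPM (log2 fold change -0.64, edgeR adjusted p = 0.104), DSC3, its partner, at 120 ± 15.5 against 170 ± 20.4 CPM and CDH3, P-cadherin, at 357 against 456 CPM, each without overlap of the groups. The basal keratin gene KRT5 had the other order, at 6500 ± 557 against 5126 ± 495.5 CPM (adjusted p = 0.189).

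Genes of epithelial adhesion and splicing that grainyhead factors are known to maintain were also without a call by edgeR, with 25 tested, 4 at an unadjusted p under 0.05 and a median of -0.01, and without one by limma on counts or on log2 values. ESRP1, an epithelial splicing factor, was at 147, 155 and 155 CPM in the controls and 113, 106 and 83.2 CPM in CNTNAP2-203 OE (log2 fold change -0.60, edgeR adjusted p = 0.0733). DESeq2 called it lower (adjusted p = 0.00465). So did edgeR without CNTNAP2-203 OE replicate 3 and with no filter on low counts (adjusted p = 0.0247 and 0.0477). CLDN7 (adjusted p = 0.217) and DSP (adjusted p = 0.261) had groups that overlapped. CLDN4, a claudin gene named after its values were seen, was at 3.23, 0.583 and 120 CPM in control replicates 1, 2 and 3 and at 116, 131 and 124 CPM in CNTNAP2-203 OE. Control replicate 3 was thus at the level of the other group for this gene.

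Among 17 mesenchymal genes that OVOL and grainyhead factors are known to repress, 16 were tested, CDH2 rose and none fell. The median was 0.36, with 14 of 16 positive, and 5 had an unadjusted p under 0.05. CDH2, N-cadherin, was at 7.21, 6.51 and 5.44 CPM in the controls and 13.6, 17.0 and 12.8 CPM in CNTNAP2-203 OE (log2 fold change 1.18, SE 0.173, edgeR adjusted p = 0.0271). It was higher in each of the 3 libraries than in any control. Of the 6 fits that leave out a library, the call held in the one without CNTNAP2-203 OE replicate 3 (adjusted p = 0.01996) and not in the other 5 (0.0695 to 0.145). With limma on the deposited log2 values CDH2 had a log2 fold change of 0.71 and did not pass (adjusted p = 0.0574). SPARC, a matrix protein gene, was at 582 against 427 CPM (adjusted p = 0.0625; 0.0330 without CNTNAP2-203 OE replicate 3) and TGFBI at 551 against 437 CPM (adjusted p = 0.114). DESeq2 called 3 genes of the list higher, CDH2, SPARC (adjusted p = 0.00218) and TGFBI (adjusted p = 0.0308). The repressor genes of the mesenchymal switch ZEB1 and ZEB2 stayed near 1 CPM in both groups, and CDH1, E-cadherin, was at 246 ± 94.1 against 236 ± 4.36 CPM (adjusted p = 0.928). Of the genes in these lists, IVL, KRT5, CDH1, ZEB1 and ZEB2 were also named after their values were seen.

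**Figure D4:**
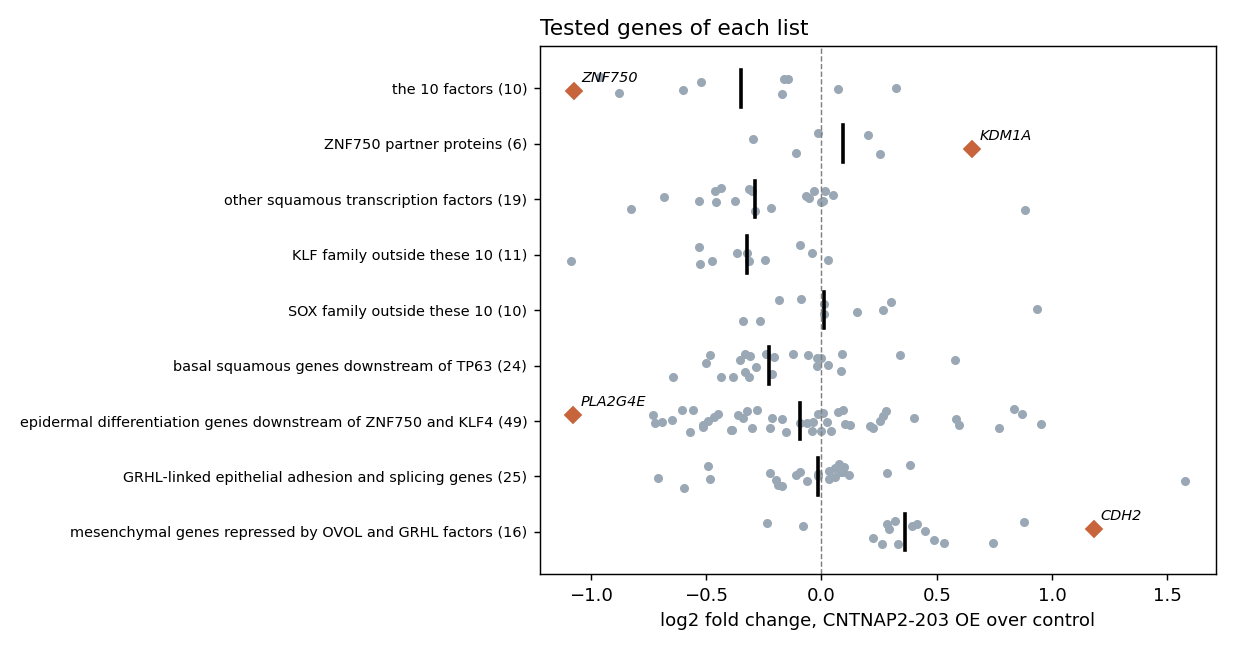
Log2 fold change, CNTNAP2-203 OE over control, of every tested gene in the 10 factors and in 8 lists around them (number tested in brackets), with a bar at the median and orange diamonds for genes with an adjusted p under 0.05. The 4 diamonds are ZNF750 and PLA2G4E, which were lower, and KDM1A and CDH2, which were higher.

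The genes whose levels over the 6 libraries were most like those of ZNF750 were sought among 12476 named genes, by the root mean square difference of log2 CPM after centring each gene. The nearest were TLCD2 (0.10), CDH23 (0.10), ARRDC4 (0.12), PITPNM3 (0.12) and HIST2H2BF (0.12). TLCD2, for example, was at 36.6, 33.8 and 36.5 CPM in the controls and 20.8, 17.4 and 18.1 CPM in CNTNAP2-203 OE. For TP63 the nearest were FAM157C (0.09), PIGCP1 (0.09), ACVR2B (0.09), MAST4 (0.10) and PKD1P1 (0.10). MAST4, for example, was at 46.6, 54.1 and 54.7 CPM in the controls and 42.03, 41.5 and 17.6 CPM in CNTNAP2-203 OE, so it shared the low replicate 3. The 2 sets had no gene in common. PIGCP1 and PKD1P1 are pseudogenes, whose counts are uncertain.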

How the data were processed

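The authors deposited a table of raw counts per gene (whole numbers, not normalized) and a table of log2 values, per the file names log2 of FPKM. Recomputed from the counts, an offset of 1 before the logarithm gave gene lengths that varied between libraries by a median of 0.24%, and no offset by 3.3%, so FPKM was taken as 2 to the power of the value, minus 1. Per the submitters' processing notes, reads were trimmed with Trim Galore 0.4.4 and the build was hg38; for aligner, counting tool and strand setting: not given in the sources used here. Per the labels' protocols, RNA was depleted of ribosomal RNA and libraries were made with a TruSeq v2 kit. The forward reads alone of control replicate 1 were submitted, per the labels. Positions, exon lengths and overlaps are those of GENCODE 29, which holds 58735 genes. The count table lists 60564, so the counts were made with a different set of genes.

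Counts were tested with edgeR 4.0.16 (R 4.3.3): filterByExpr (minimum count 10), TMM scaling, robust quasi-likelihood, group as the only term, Benjamini-Hochberg over 18786 genes, threshold 0.05. SE is the absolute log2 fold change over the square root of F, and 95% intervals use the t quantile of the fit. Alternatives were DESeq2 1.42.0, limma 3.58.1, other scalings and filters, a replicate term and leaving out each library. The test was tested on simulated data. The 10 factors and the lists were chosen with earlier results of these data known. Genes named from a list are its 3 with the smallest p and those called, up to 6; the 10 factors, CNTNAP2, overlapping genes and the 5 genes most like ZNF750 and TP63 were also named. Some genes and 1 list that these rules would name are not reported here.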

Additional observations from a re-analysis of the deposited data

How the results depend on the processing

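ZNF750 was the 1 factor called by edgeR, and it was also the 1 called with RLE or upper quartile scaling, with no filter, with a filter of 1 CPM in 3 libraries, without the robust fit, by limma-voom and by limma on the deposited log2 values. DESeq2 called 3 of the 10. No factor changed the sign of its log2 fold change in any of these fits or when 1 library was left out. When 1 library was left out, the number of factors called was 0 to 1, and the number of all genes called was 14 to 545. Over all genes the main count of 262 was 1063 by DESeq2, 165 by limma on the deposited log2 values and 167 without the robust fit; the cause was not tested.

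The replicate numbers gave no sign of pairs. Same-numbered libraries of the groups had correlations of their deviations from the group means of -0.082, 0.045 and -0.028. Deviations from a mean of 3 depend on each other, so these values cannot show whether the libraries were prepared in pairs. With the replicate block 17 genes were called, among them 0 of the 10 factors (ZNF750 log2 fold change -1.08, adjusted p = 0.0642), and the fit has fewer residual degrees of freedom. Control replicate 1 did not correlate best with its own number. With 3 libraries a group, the intervals of the factors are wide, down to a ratio of 0.226 for KLF4.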
